A study of Komagataella pastoris with 4 samples.

Results

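Mitochondrial protein import and carrier genes were taken from a table of read counts as the rows whose protein name mentions a mitochondrial carrier, transporter, import protein, translocase or processing protein, a numbered TIM or TOM subunit, or the inner or outer mitochondrial membrane. Rows naming carnitine, succinate-fumarate, ribosomes, cytochromes or ATP synthase were left out. The rule used descriptions only and found 49 of 5427 rows, after 2 of 51 matching rows were removed by the exclusions. By their descriptions 19 of the 49 act in protein import and 27 are carriers or ion transporters. The remaining 3 were caught by their names alone: a nuclear ubiquitin ligase called TOM1, a TOM1-like protein and a deubiquitinating enzyme of the outer membrane.

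The rows were measured in 4 strains of the methylotrophic yeast Pichia pastoris (Komagataella), harvested after 14 h on methanol minimal medium. All 4 strains were histidine auxotrophs. The wild type was GS115, with no drug resistance, and the other 3 strains carried Zeocin resistance and a deletion of Mxr1, of Gal83 or of Gcn5. Mxr1 is a zinc-finger transcription factor of methanol genes, Gal83 one of the beta-subunits of the kinase Snf1, and Gcn5 the histone acetyltransferase of the SAGA complex. The study's stated purpose was to find targets of Gcn5. Each strain was represented by 1 library of RNA, so differences are between libraries and have no replicate check. The labels do not say how many clones or cultures stand behind a library.

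Library totals lay between 30582006 and 48539082 counts. The row described as an acetyltransferase of histones H2B and H3 (gene3103) had 2570 wild-type counts and 3 in the Gcn5-deleted library. A row for a possible Snf1 beta-subunit (gene1360) had 5215 wild-type counts and 8 in the Gal83-deleted library. No row was described as Mxr1, and gene4868, named as a zinc-finger transcription factor responsive to the carbon source, had 9114 wild-type counts and 11606 in the library labelled as the Mxr1 deletion. Whether gene4868 is Mxr1 was not settled, so that library is called Mxr1-labelled and its directions rest on its label.

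Nearly all mitochondrial proteins are made in the cytosol and imported. They pass the outer membrane through the TOM complex. Proteins with a cleavable presequence then enter the matrix through the TIM23 complex, pulled by a motor built on the Hsp70 Ssc1, while multi-spanning carrier proteins are guided by small TIM chaperones across the intermembrane space to the TIM22 complex. Small cysteine-rich proteins, among them the small TIMs, are folded there by the disulfide relay of Mia40 and Erv1. The mitochondrial carriers themselves are a family of inner membrane proteins that exchange phosphate, nucleotides, cofactors, carboxylates and amino acids between cytosol and matrix. In methylotrophic yeasts methanol is oxidised in peroxisomes, and mitochondria take up the reducing power formed on the way to carbon dioxide.

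Levels are given as scaled counts-per-million (CPM), that is counts divided by library sizes corrected with the trimmed mean of M-values (TMM). The table gave no gene lengths, so levels are compared between libraries for 1 row and not between rows. Each deletion library is set against the wild type as a log2 ratio of scaled counts, after 0.5 was added to each count. Brackets hold the exact 95% Clopper-Pearson counting interval, which covers counting error only. A row was called higher or lower where the difference reached 2-fold and equality lay outside the interval. With 1 library per strain no test between strains was possible. In RNA from a whole culture, a lower level in every cell and fewer cells with the transcript cannot be told apart.

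As a group the 49 rows did not move one way in any deletion library. In the Mxr1-labelled library 6 were higher and 6 lower, against 7.97% and 10.3% of all 5420 rows compared. In the Gal83-deleted library 5 were higher and 5 lower, against 11% and 10.7% of all rows. In the Gcn5-deleted library 2 were higher and 3 lower, against 4.06% and 5.04%. With total counts in place of TMM, which moved the median of all rows to -0.36, 0.14 and -0.34 in the same order, the members higher and lower were 5 and 10, 6 and 2, and 0 and 10. The shares of all rows called higher and lower were then 4.26% and 18.9%, 14.1% and 8.99%, and 2.05% and 10.8%. Under TMM the shares are near the background, so the counts say nothing particular about the group. The median log2 ratio of the members was -0.14, -0.14 and 0.02 in the same order, beside -0.01, 0.01 and -0.01 for all rows. All 49 rows passed the minimum of a mean of 20 counts.

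A looser limit of 1.5-fold gave 13 higher and 14 lower members in the Mxr1-labelled library, where 19.4% and 21.2% of all rows passed it. The Gal83-deleted library had 10 of each, against 23% and 21.4%, and the Gcn5-deleted library had 8 and 11, against 12.7% and 13.5%. In total 20 members (40.8%) were called in at least 1 comparison, beside 36.3% of all rows, and 29 were called in none. No member was lower in all 3 deletion libraries, which 65 of 5420 rows were. The 3 comparisons share the wild-type library, so a low or high wild-type value would enter all of them.

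**Figure D1:**
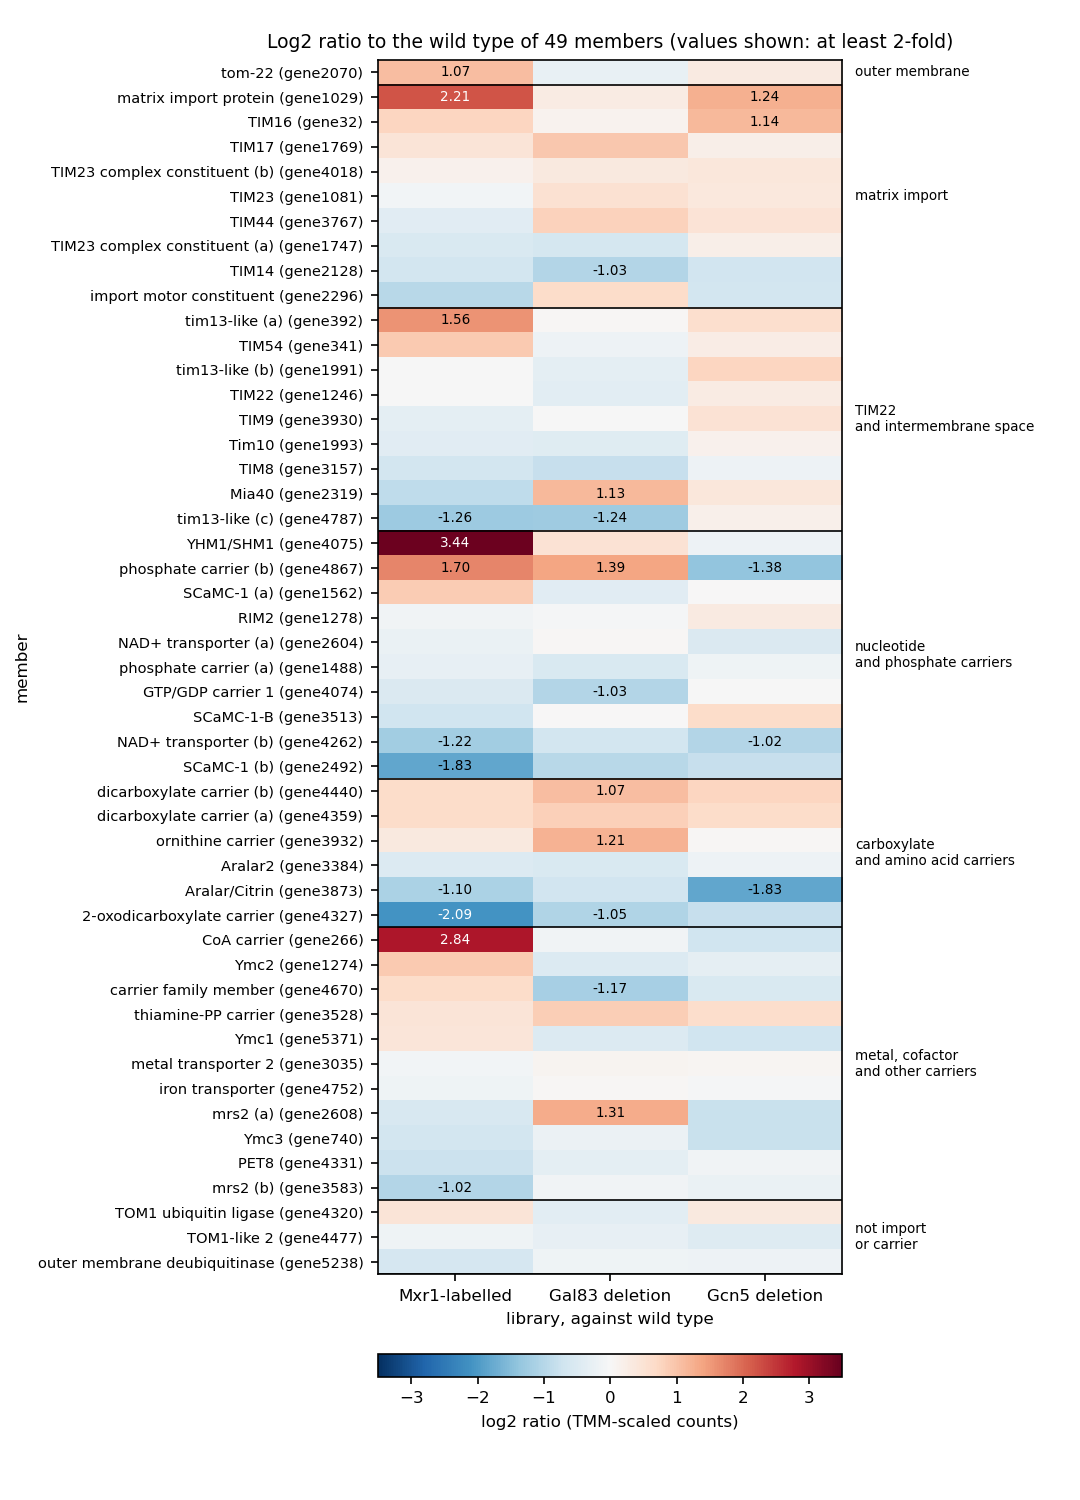
Log2 ratio to the wild type (colour) of the 49 members in the Mxr1-labelled, Gal83-deleted and Gcn5-deleted libraries, grouped by role and ordered by the Mxr1-labelled ratio. Numbers mark the called rows; the highest is YHM1/SHM1 at 3.44 and the lowest the 2-oxodicarboxylate carrier at -2.09, both in the Mxr1-labelled library.

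Single rows differed more than the group. The highest ratios belonged to a row named YHM1/SHM1, a coenzyme A carrier and a matrix import protein, and the lowest to a 2-oxodicarboxylate carrier, a SCaMC carrier and the aspartate/glutamate carrier. Between the highest and the lowest of the 4 libraries, the median member spanned 2.1-fold, beside 1.98-fold for all rows. A span of at least 4-fold was found for 7 members (14.3%) and 11.8% of all rows. A span under 1.5-fold was found for 9 members (18.4%) and 20.1% of all rows.

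**Figure D2:**
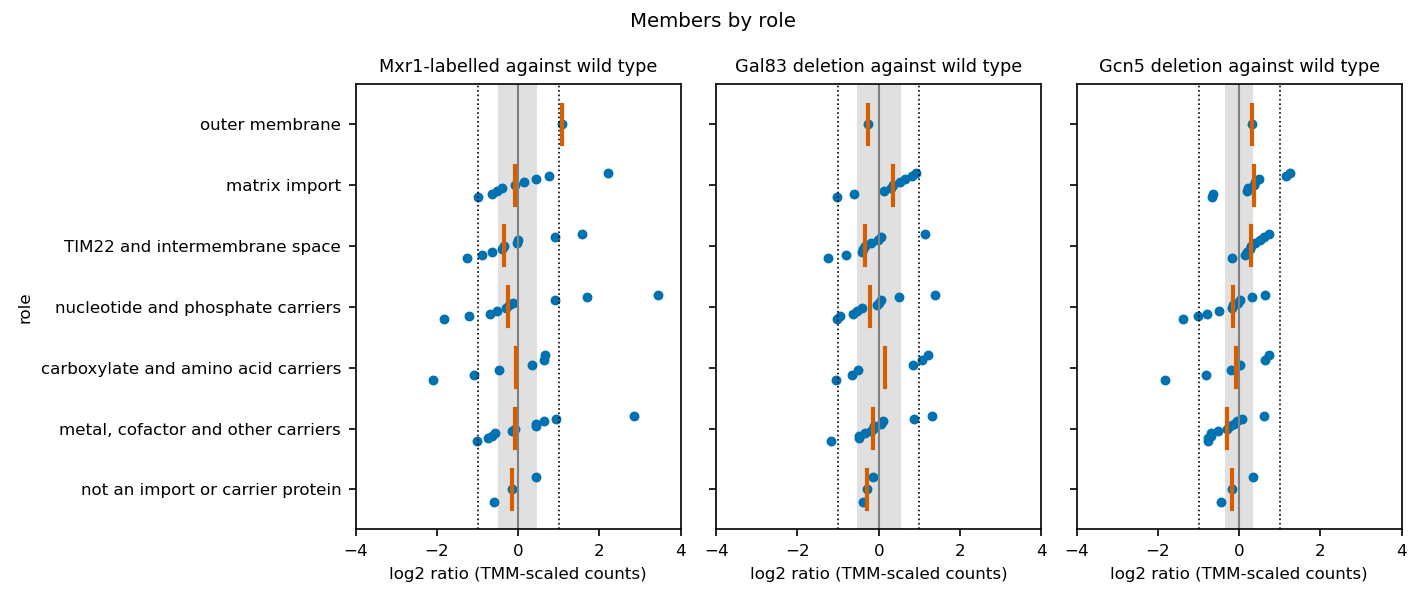
Log2 ratio to the wild type of each member (points) by role in the 3 comparisons, with the median of each role (orange bar), the quartiles and median of all 5420 rows (grey band and line) and the 2-fold limits (dotted). The role medians lie inside or near the grey band in each panel except for the single outer membrane row in the Mxr1-labelled library, at 1.07.

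Of the outer membrane machinery the rule found 1 row, the import receptor subunit tom-22 (gene2070), which in Saccharomyces cerevisiae is the central receptor of the TOM complex. Its level was 76.1 in wild type, 160 in the Mxr1-labelled, 63.2 in the Gal83-deleted and 94.9 in the Gcn5-deleted library. The Mxr1-labelled library was the highest, at a log2 ratio of 1.07 [1.01 to 1.13]. With total counts the ratio was 0.72 and the row was no longer called, nor was it with upper-quartile factors. The row beside it in the table, the carnitine carrier Crc1 (gene2069), was at log2 6.19 in the same library and the row on the other side (gene2071) at 0.07, and the labels do not say whether reads were counted by strand. The part of these neighbours in the tom-22 count was not tested.

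Matrix import was represented by 9 rows. In the Mxr1-labelled library 1 was higher and 0 lower, in the Gal83-deleted library 0 and 1, and in the Gcn5-deleted library 2 and 0. Over all rows the shares were 7.97% and 10.3%, 11% and 10.7%, and 4.06% and 5.04% in the same order. With so few rows per role, such counts say nothing particular about a role, here or below. The row described as a mitochondrial protein involved in import into the matrix (gene1029) had a level of 101 in wild type, 465 in the Mxr1-labelled, 124 in the Gal83-deleted and 237 in the Gcn5-deleted library. With the Mxr1 label it was 4.61-fold higher (log2 2.21 [2.16 to 2.25]), and 2.35-fold higher in the Gcn5-deleted library (log2 1.24 [1.18 to 1.29]). With total counts the second ratio was 0.90, short of 2-fold. Wild type and Gal83 deletion were the low pair of libraries for this row.

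TIM16, a regulatory J-like protein of the import motor (gene32), was at 24.2 in wild type, 40.9 in the Mxr1-labelled, 26.3 in the Gal83-deleted and 53.2 in the Gcn5-deleted library. Its log2 ratio in the Gcn5-deleted library was 1.14 [1.03 to 1.25], and 0.81 with total counts, where it was not called. Both adjacent rows also lay above the wild type in that library, at log2 0.73 (gene31) and 0.95 (gene33). TIM14, the J-protein that stimulates Ssc1 in the motor and pairs with TIM16 (gene2128), went the other way. Its level was 25.2, 16.1, 12.4 and 15.8 in the wild type, Mxr1-labelled, Gal83-deleted and Gcn5-deleted libraries, so that the wild type was the highest. It was called lower in the Gal83-deleted library, at log2 -1.03 [-1.18 to -0.87], and was at -0.89 there with total counts.

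Over the 4 libraries the channel subunits TIM23 and TIM17 spanned 1.53-fold and 1.9-fold, and TIM44 2.31-fold. The spans of TIM16 and TIM14 were 2.2-fold and 2.04-fold. TIM23 (gene1081), which forms the import channel with TIM17, had levels of 54.3, 51.0, 78.1 and 69.7 in the same order of libraries. TIM17 (gene1769) was at 33.7, 45.7, 64.1 and 39.1, and its log2 ratio of 0.93 [0.84 to 1.02] in the Gal83-deleted library fell just short of 2-fold. TIM44 (gene3767), which tethers Ssc1 to the channel, was at 51.7, 39.3, 91.1 and 72.5. TIM23, TIM17 and TIM44 had their highest level in the Gal83-deleted library, and none of them was called.

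Of a pair of rows with the same description as constituents of the TIM23 complex, gene1747 had levels of 105, 72.8, 68.1 and 121. The other, gene4018, was at 62.7, 69.3, 79.2 and 82.0, a span of 1.31-fold over the 4 libraries. In gene1747 the Mxr1-labelled and Gal83-deleted libraries were the low ones, in gene4018 the wild type was. A further constituent of the motor (gene2296) was thinly covered, with 188, 53, 202 and 60 counts, and its ratio of -0.98 [-1.46 to -0.54] in the Mxr1-labelled library was the one closest to the limit without passing it.

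The TIM22 complex and the intermembrane space were represented by 9 rows. In the Mxr1-labelled and also the Gal83-deleted library 1 was higher and 1 lower, and in the Gcn5-deleted library none was called. The shares of all rows higher and lower were 7.97% and 10.3%, 11% and 10.7%, and 4.06% and 5.04% in the same order. Mia40, the oxidoreductase of the disulfide relay (gene2319), had a level of 86.6 in wild type, 46.9 in the Mxr1-labelled, 189 in the Gal83-deleted and 114 in the Gcn5-deleted library. It was 2.18-fold higher in the Gal83-deleted library (log2 1.13 [1.07 to 1.18]) and at -0.89 [-0.97 to -0.80] in the Mxr1-labelled library, which makes a 4.03-fold span between these deletion strains. Its partner Erv1 (gene2899), the sulfhydryl oxidase that reoxidises Mia40, lay outside the rule. Its level was 20.8, 24.2, 74.2 and 18.1 in the wild type, Mxr1-labelled, Gal83-deleted and Gcn5-deleted libraries. It was 3.57-fold higher in the Gal83-deleted library (log2 1.84 [1.73 to 1.94]), which was the only high library for Erv1.

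TIM22, the channel for carrier proteins (gene1246), had levels of 12.1, 11.9, 9.24 and 14.7. TIM54, a TIM22 partner (gene341), was at 51.6, 96.7, 45.6 and 61.7, with a ratio of 0.91 [0.83 to 0.98] in the Mxr1-labelled library. Neither was called. Of the small TIM chaperones Tim10 (gene1993) had the fewest counts, from 61 to 144, and the widest intervals. Log2 ratios of TIM8 (gene3157), TIM9 (gene3930) and Tim10 lay between -0.80 and 0.50, and none was called.

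Rows with tim13-like domains, of the same chaperone family, differed from one another. The row gene392 had 291, 480, 208 and 222 counts and was higher in the Mxr1-labelled library, at log2 1.56 [1.35 to 1.78]. By contrast gene4787, with 635, 148, 186 and 362 counts, was lower with the Mxr1 label at -1.26 [-1.53 to -1.0] and in the Gal83-deleted library at -1.24 [-1.48 to -1.0]. The third, gene1991, was called in no library and was at 0.74 [0.59 to 0.89] in the Gcn5-deleted library. Each of the 3 thus had a different order of libraries. A neighbour of gene392, gene393, was at log2 1.58, 0.11 and -0.27 in the Mxr1-labelled, Gal83-deleted and Gcn5-deleted libraries, beside 1.56, 0.05 and 0.60 for gene392. The row on its other side, gene391, was at 0.88, 0.42 and 0.33.

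Among 10 carriers of nucleotides and phosphate, 2 were higher and 2 lower with the Mxr1 label. In the Gal83-deleted library 1 and 1 were, and in the Gcn5-deleted library 0 and 2. Over all rows 7.97% and 10.3%, 11% and 10.7%, and 4.06% and 5.04% were called higher and lower. The phosphate carrier supplies the matrix with phosphate for ATP synthesis. Of its pair of rows, gene1488 had levels of 615, 500, 426 and 550 in the wild type, Mxr1-labelled, Gal83-deleted and Gcn5-deleted libraries and was not called. The second row, gene4867, had levels of 121, 392, 316 and 46.4. It stood 3.25-fold higher in the Mxr1-labelled library (log2 1.70 [1.66 to 1.74]), 2.62-fold higher in the Gal83-deleted library (log2 1.39 [1.35 to 1.43]) and 2.6-fold lower in the Gcn5-deleted library (log2 -1.38 [-1.47 to -1.29]). No other member was called higher in 1 library and lower in another, which 2.38% of all rows were. From the Gcn5-deleted to the Mxr1-labelled library gene4867 spanned 8.44-fold. The adjacent row gene4868, the zinc-finger factor named above, was at log2 1.19, 1.16 and -0.15, and gene4866 on the other side at 0.54, 1.41 and -0.56.

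YHM1/SHM1 are older names of the GTP/GDP carrier of S. cerevisiae, and the row of that name (gene4075) lies beside the row called GTP/GDP carrier protein 1 (gene4074). The level of gene4075 was 9.16 in wild type, 99.3 in the Mxr1-labelled, 13.1 in the Gal83-deleted and 8.12 in the Gcn5-deleted library. It lay 10.8-fold higher in the Mxr1-labelled library (log2 3.44 [3.30 to 3.58]), from 489 to 2967 counts, and the other libraries lay far below. The level of gene4074 was 59.6, 41.9, 29.1 and 58.7 in the same order. This row was lower in the Gal83-deleted library, at log2 -1.03 [-1.13 to -0.93], or -0.90 with total counts, where it was not called. On the other side of gene4075 lies acetyl-CoA hydrolase (gene4076), which was at log2 2.52, 0.58 and -0.70 in the Mxr1-labelled, Gal83-deleted and Gcn5-deleted libraries, beside 3.44, 0.51 and -0.17 for gene4075. Whether reads of this neighbour enter gene4075 was not tested.

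Of the rows described as NAD+ transporters, which bring the cofactor into the matrix, gene4262 had the most counts of any member, 96524 in the wild type. Its level was 1807 in wild type, 777 in the Mxr1-labelled, 1159 in the Gal83-deleted and 893 in the Gcn5-deleted library, the wild type being the highest. It was lower in the Mxr1-labelled library (log2 -1.22 [-1.24 to -1.20]) and in the Gcn5-deleted library (log2 -1.02 [-1.04 to -1.0]), the latter just past the limit, and was at -0.64 [-0.66 to -0.63] in the Gal83-deleted library. The second row, gene2604, had 1.47% to 2.88% of the summed counts of the pair and levels of 27.0, 23.1, 27.9 and 19.1.

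The SCaMC rows carry the name of calcium-binding carriers that in animals exchange ATP-Mg for phosphate. The lowest of them, gene2492, had levels of 25, 7.03, 12.8 and 14.3 in the wild type, Mxr1-labelled, Gal83-deleted and Gcn5-deleted libraries. It stood 3.55-fold lower in the Mxr1-labelled library (log2 -1.83 [-2.05 to -1.62]) and close to the limit in the others, at -0.96 [-1.12 to -0.81] and -0.80 [-0.97 to -0.64]. A second row of the same name, gene1562, was at 97.6, 183, 74.0 and 99.3, with the Mxr1-labelled library the highest at log2 0.90 [0.85 to 0.96]. SCaMC-1-B (gene3513) was at 30.3, 18.8, 30.5 and 47.0, with the Gcn5-deleted library the highest at 0.63 [0.53 to 0.74]. RIM2, a carrier of pyrimidine nucleotides in S. cerevisiae (gene1278), lay between -0.13 and 0.31 and was not called.

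Among 6 carriers of carboxylates and amino acids, 0 were higher and 2 lower with the Mxr1 label, 2 and 1 in the Gal83-deleted library, and 0 and 1 in the Gcn5-deleted library. The shares of all rows were 7.97% and 10.3%, 11% and 10.7%, and 4.06% and 5.04% in the same order. The 2-oxodicarboxylate carrier (gene4327), which in S. cerevisiae moves 2-oxoglutarate and 2-oxoadipate, had a level of 602 in wild type, 142 in the Mxr1-labelled, 291 in the Gal83-deleted and 344 in the Gcn5-deleted library. The wild type stood above all deletion libraries. The row lay 4.24-fold lower in the Mxr1-labelled library (log2 -2.09 [-2.13 to -2.04]), 2.07-fold lower in the Gal83-deleted library (log2 -1.05 [-1.08 to -1.02]; -0.91 with total counts, not called) and at -0.81 [-0.84 to -0.78] in the Gcn5-deleted library.

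The aspartate/glutamate carrier of the Aralar/Citrin type (gene3873), known in animals from the malate-aspartate shuttle for NADH, showed another order. Its level was 555, 259, 353 and 156 in the wild type, Mxr1-labelled, Gal83-deleted and Gcn5-deleted libraries. Here the Gcn5-deleted library was the lowest, 3.55-fold below the wild type (log2 -1.83 [-1.87 to -1.78]). The row was also lower in the Mxr1-labelled library (log2 -1.10 [-1.14 to -1.06]) and was at -0.66 [-0.69 to -0.63] in the Gal83-deleted library. The rows on either side of gene4327 were at log2 -1.56 (gene4326) and 0.24 (gene4328) in the Mxr1-labelled library. Those beside gene3873 were at -0.92 (gene3872) and 0.45 (gene3874), and those beside gene2492 at -1.47 (gene2491) and 0.56 (gene2493). The part of neighbouring rows in these counts was not tested. Aralar2 (gene3384), of similar name, was at 111, 79.9, 77.2 and 97.4 and was not called.

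The ornithine carrier (gene3932), a step between arginine synthesis in the matrix and the cytosol, had levels of 20.9, 26.3, 48.3 and 21.4 in the wild type, Mxr1-labelled, Gal83-deleted and Gcn5-deleted libraries. It was high in the Gal83-deleted library, at log2 1.21 [1.10 to 1.32], and close to the wild type in the Gcn5-deleted library, at 0.03 [-0.11 to 0.18]. Dicarboxylate carriers exchange malate or succinate for phosphate, and a pair of rows bears that description. The row gene4440 was at 14.5, 22.7, 30.5 and 24.2 and was called higher in the Gal83-deleted library at log2 1.07 [0.94 to 1.21], while gene4359 was at 15.9, 24.5, 28.5 and 24.7 and reached 0.84 [0.71 to 0.98] there. Both had their lowest level in the wild type. The pair's counts were shared almost evenly in every library, from 47.8% to 51.7% for gene4440. If the rows are near-identical copies, counting could have split reads between them, and single-row values would be uncertain. Whether it did was not tested.

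The 11 remaining carriers move cofactors, metals or unnamed substrates. In the Mxr1-labelled and also the Gal83-deleted library 1 was higher and 1 lower, and in the Gcn5-deleted library none was called. The shares of all rows higher and lower were 7.97% and 10.3%, 11% and 10.7%, and 4.06% and 5.04% in the same order. The carrier for accumulation of coenzyme A in the matrix (gene266) had a level of 219 in wild type, 1568 in the Mxr1-labelled, 201 in the Gal83-deleted and 136 in the Gcn5-deleted library. It lay 7.14-fold higher in the Mxr1-labelled library (log2 2.84 [2.81 to 2.87]) and at -0.69 [-0.74 to -0.63] in the Gcn5-deleted library. The row before it in the table, a conserved predicted protein (gene265), had almost the same ratios, at log2 2.85, 0.04 and -0.70 beside 2.84, -0.13 and -0.69. The row after it, gene267, was at -0.35, 0.79 and -0.04. Whether these neighbours share reads was not tested.

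Of a pair of rows named for the magnesium channel Mrs2, gene2608 had levels of 26.4, 17.9, 65.5 and 15.5 in the wild type, Mxr1-labelled, Gal83-deleted and Gcn5-deleted libraries. It was high in the Gal83-deleted library, at log2 1.31 [1.21 to 1.41]. The other, gene3583, had levels of 12.3, 6.03, 11.3 and 10.5, and the Mxr1-labelled library was low at -1.02 [-1.27 to -0.79], just past the limit. With 5 added to each count gene3583 was no longer called. Its neighbours gene3582 and gene3584 were at -1.06 and 0.04 in the same library.

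A transporter described as a member of the carrier family with no substrate (gene4670) had levels of 34.6, 54.0, 15.3 and 24.0. It was lower in the Gal83-deleted library, at log2 -1.17 [-1.31 to -1.04], and the Mxr1-labelled library was the highest, 3.52-fold above it. The Ymc rows are named for carriers linked in S. cerevisiae to glycine and glutamate. Ymc1 (gene5371) was at 67.6, 90.9, 48.3 and 41.9, and Ymc2 (gene1274) at 36.1, 68.5, 25.6 and 29.2, both with the Mxr1-labelled library the highest. Ymc3 (gene740) was at 37.5, 24.1, 32.8 and 22 with the wild type the highest. None of the Ymc rows was called, and the nearest to the limit was Ymc2 in the Mxr1-labelled library at 0.92 [0.83 to 1.02].

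The steadiest members were an iron transporter and metal transporter 2, unlike the Mrs2 rows above, which spanned 4.22-fold (gene2608) and 2.03-fold (gene3583). The iron transporter of the carrier family (gene4752), which feeds iron-sulfur cluster and heme synthesis, had levels of 52.3, 47.5, 54.3 and 50.7, a span of 1.14-fold. Mitochondrial metal transporter 2 (gene3035) was at 66.5, 62.5, 71.0 and 69.6, also within 1.14-fold. The carrier of the enzyme cofactor thiamine pyrophosphate (gene3528) had its lowest level, 14.2, in the wild type and reached log2 0.86 [0.72 to 1.0] in the Gal83-deleted library without being called. PET8, in S. cerevisiae the carrier of S-adenosylmethionine (gene4331), was at -0.74 [-1.01 to -0.48] in the Mxr1-labelled library and was not called. The 3 rows without an import or carrier role, gene4320, gene4477 and gene5238, were called in no comparison.

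**Figure D3:**
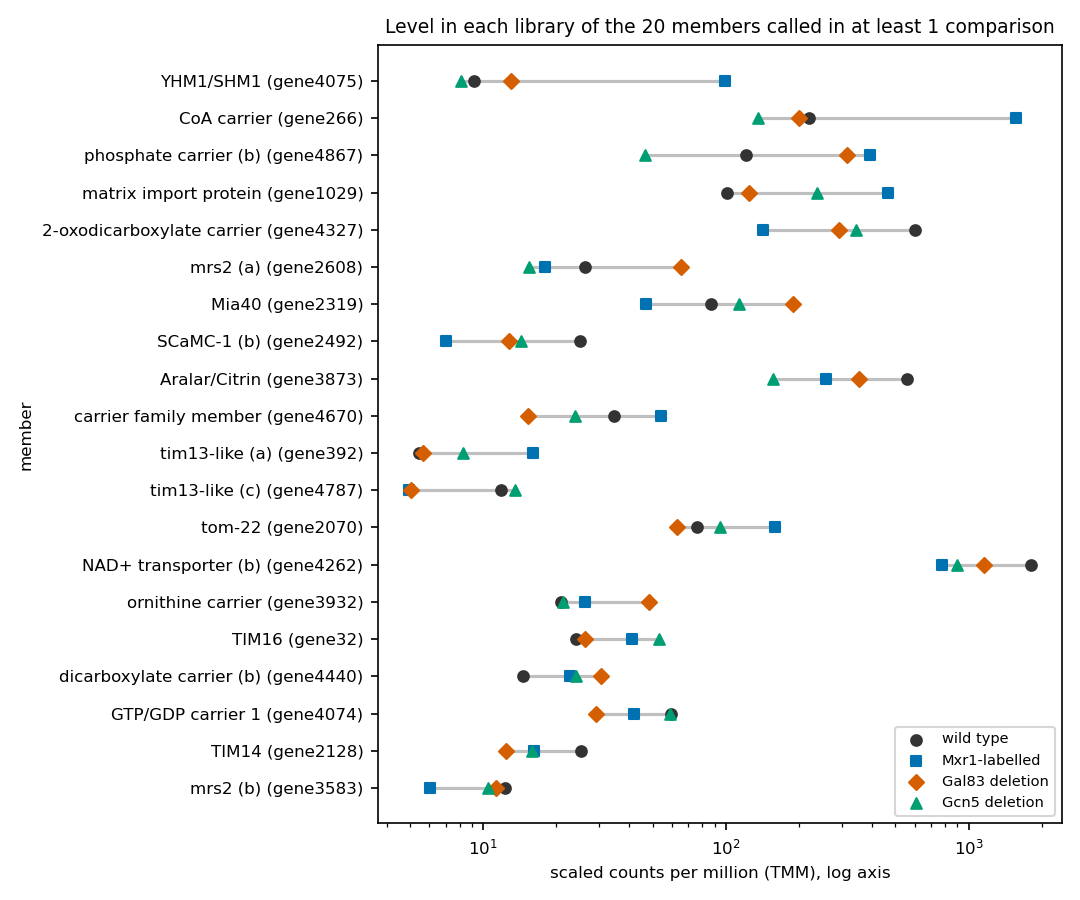
Scaled counts-per-million (log axis) in the wild-type, Mxr1-labelled, Gal83-deleted and Gcn5-deleted libraries for the 20 members called in at least 1 comparison, ordered by the span between libraries (grey line). The span ran up to 12.2-fold for YHM1/SHM1, where the Mxr1-labelled library (99.3) lies to the right of all others.

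Rows with like descriptions were also compared by their share of the set's counts within each library. The second phosphate carrier row gene4867 made up 16.4% [16.0 to 16.8] of the pair's counts in the wild type, 43.9% [43.3 to 44.5] in the Mxr1-labelled, 42.6% [42.0 to 43.2] in the Gal83-deleted and 7.78% [7.37 to 8.21] in the Gcn5-deleted library (exact Clopper-Pearson intervals). The summed counts of the pair ran from 16011 to 39264. For the GTP/GDP pair, YHM1/SHM1 held 13.3% [12.2 to 14.5] in the wild type, 70.3% [68.9 to 71.7] in the Mxr1-labelled, 31.0% [28.7 to 33.3] in the Gal83-deleted and 12.1% [10.7 to 13.7] in the Gcn5-deleted library. Only in the Mxr1-labelled library did YHM1/SHM1 have more counts than its neighbour.

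Within the tim13-like rows, gene392 held 17.2% in wild type and 45.5% with the Mxr1 label, while gene4787 went from 37.4% to 14.0%. Among the SCaMC rows, gene1562 held 63.9% in wild type and 87.6% with the Mxr1 label, and 63.1% and 61.8% in the Gal83-deleted and Gcn5-deleted libraries. Of the Mrs2 rows, gene2608 held 68.2% in wild type and 85.3% in the Gal83-deleted library. Shares within 1 library do not depend on scaling, but reads that fit more than 1 row could have been split by the counting.

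**Figure D4:**
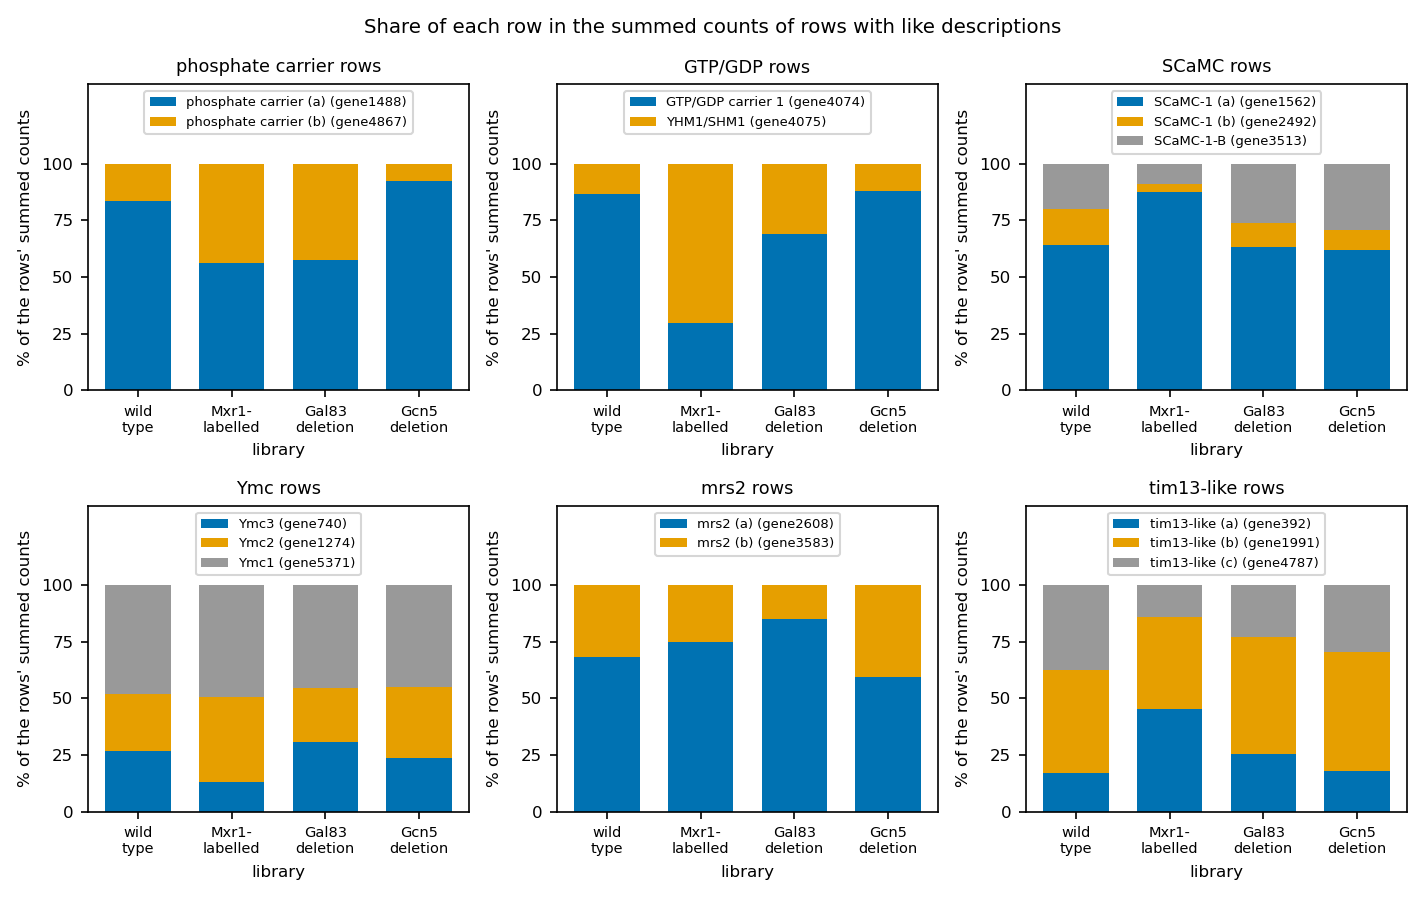
Percent of the summed counts held by each row in 6 sets of rows with like descriptions, for the wild-type, Mxr1-labelled, Gal83-deleted and Gcn5-deleted libraries; bars add up to 100%. The phosphate carrier, GTP/GDP and tim13-like sets differ most between bars, and the Ymc1 share stays between 45.0% and 49.5%.

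Import and carrier rows were set side by side for the Gcn5-deleted library, a split chosen with its values known. Of 19 import rows 16 lay above the wild type there and 3 below, with a median log2 ratio of 0.32, but with total counts 9 lay above and 10 below. Of 27 carriers 8 lay above and 19 below, with a median of -0.19. Most of these ratios were small, and over all rows 50.6% lay below the wild type with a median of -0.01. With total counts the median of all rows was -0.34 and those of the import and carrier rows were -0.01 and -0.52. Relative to the median of all rows the import rows were at 0.33 and the carriers at -0.18, a distance that no scaling of whole libraries can change. Under TMM none of the 19 import rows had its lowest level in the Gcn5-deleted library, while 23.4% of all rows did. The highest level lay there for 8 import rows (42.1%), beside 21.3% of all rows. These ranks come from the same values and were not counted under other scalings, so they add no separate evidence. In the Mxr1-labelled library the import and carrier medians were -0.09 and -0.14, and in the Gal83-deleted library -0.01 and -0.13.

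Summed over the 49 members, the rows held 0.638% of the wild-type counts (309745, exact 95% Poisson interval 308655 to 310838), 0.531% in the Mxr1-labelled, 0.564% in the Gal83-deleted and 0.376% in the Gcn5-deleted library. In scaled CPM the 49 members summed to 5800, 6156, 4671 and 4301 in the same order. By that measure the Mxr1-labelled library was above the wild type, while by percent of counts it was below. The carriers summed to 4703, 4575, 3489 and 2852 and the import rows to 770, 1191, 923 and 1087. A few rows carried much of these sums. The coenzyme A carrier gene266 held 219.5 of the wild-type sum and 1568 of the Mxr1-labelled sum. The NAD+ transporter gene4262 alone held 1807 of the wild-type sum of the carriers and 893 of the Gcn5-deleted sum.

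No member stood apart in 1 library, by which is meant a distance of 2-fold or more to every other library while those 3 lay within 1.5-fold of one another. Over all rows 6.81% did so. The members with large ratios differed among the remaining libraries too: for gene4075 the other levels ran from 8.12 to 13.1 and for gene266 from 136 to 219.

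Other genes of the pathway were taken from a list of 19 rows outside the rule: outer membrane assembly, porin, motor, chaperones, prohibitins and proteases. In the Gal83-deleted library 4 of 19 were higher and 0 lower (median log2 0.47), where 11% and 10.7% of all rows were. In the Mxr1-labelled library 2 were higher and 1 lower (median 0.20), beside 7.97% and 10.3% of all rows. In the Gcn5-deleted library 0 were higher and 1 lower (median 0.24), beside 4.06% and 5.04%. Besides Erv1, the rows higher in the Gal83-deleted library were the motor subunit PAM17 (gene1798) at log2 1.40 [1.33 to 1.47] and both subunits of the prohibitin ring of the inner membrane. Prohibitin 2 (gene1336) had levels of 220, 375, 567 and 320 and was at 1.37 [1.33 to 1.40]. The Phb1p-Phb2p complex row (gene4849) was at 160, 246, 321 and 190 and at 1.0 [0.96 to 1.04], at the limit itself. All 4 of these rows had their highest level in the Gal83-deleted library.

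In the Mxr1-labelled library an essential component of the outer membrane sorting and assembly machinery (gene1894) was higher at log2 1.47 [1.42 to 1.53]. The second row higher there, ERV14 (gene1054), is a cargo receptor of the secretory pathway that the list caught by its name. The lower row was the inner membrane insertase OXA1 (gene1448), whose levels were 24.4, 6.39, 15.1 and 20.6, at -1.93 [-2.16 to -1.71]. In the Gcn5-deleted library subunit 1 of the inner membrane protease (gene263) was lower, at -1.08 [-1.41 to -0.78]. The Hsp70 SSC1 (gene3950), motor of matrix import, had levels of 2962, 1708, 3745 and 5149 and was not called, the Gcn5-deleted library being the highest at 0.80 [0.79 to 0.81]. Porin (gene2103) was at 2923, 4413, 1908 and 3581 and was not called either.

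The rule missed 12 rows that describe TOM subunits or carriers in other words. They were found after values had been seen and are given for completeness. In the Mxr1-labelled library 1 was higher and 2 lower, in the Gal83-deleted library 1 and 3, and in the Gcn5-deleted library none was called. The shares of all rows higher and lower were 7.97% and 10.3%, 11% and 10.7%, and 4.06% and 5.04%. The major ADP/ATP carrier (gene5201), which exports ATP from the matrix, had levels of 2263, 1915, 750 and 2237 in the wild type, Mxr1-labelled, Gal83-deleted and Gcn5-deleted libraries. It was low in the Gal83-deleted library alone, at log2 -1.59 [-1.61 to -1.57]. The neighbouring ADP, ATP carrier protein 2 (gene5200) was at 62.1, 9.88, 24.4 and 33.0, 6.28-fold lower in the Mxr1-labelled library and at -1.35 [-1.45 to -1.24] in the Gal83-deleted library.

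Ornithine transporters outside the rule went both ways in the Gal83-deleted library. The row gene2476 was higher there, at log2 1.69 [1.61 to 1.77], as the ornithine carrier gene3932 was. The row gene4261, beside the NAD+ transporter gene4262, was lower at -1.35 [-1.53 to -1.18], and at -1.10 [-1.29 to -0.93] in the Mxr1-labelled library. A tricarboxylate carrier (gene199) was higher in the Mxr1-labelled library, at 1.54 [1.41 to 1.67]. Components of the TOM complex were not called: the 70 kDa receptor (gene2084) lay between 0.21 and 0.66, gene4983 between -0.19 and -0.01, and gene3720 between -0.22 and 0.97.

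The exclusions removed 2 carriers that were among the most different in the Mxr1-labelled library. The succinate/fumarate transporter (gene4652), which links the glyoxylate cycle to the mitochondria, was at log2 4.67 there, and at 0.03 and -0.19 in the Gal83-deleted and Gcn5-deleted libraries. Crc1, the carnitine carrier named above, had levels of 129, 9407, 47.0 and 104.

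Lists of related genes are given for comparison. For 104 rows of the respiratory chain and ATP synthase the median log2 ratio was -0.07, -0.37 and -0.19 in the Mxr1-labelled, Gal83-deleted and Gcn5-deleted libraries, with 5, 16 and 2 rows lower and 5, 6 and 0 higher. For 11 mitochondrial ribosomal rows it was -0.22, 0.23 and -0.04, with none lower and 1, 2 and 0 higher. For 50 rows naming a numbered PEX protein or a word with peroxi it was -0.38, -0.11 and -0.30. Of these 15, 9 and 15 rows were lower and 3, 7 and 0 higher. Among the 49 import and carrier rows 6, 5 and 3 were lower. Over all rows 10.3%, 10.7% and 5.04% were lower and 7.97%, 11% and 4.06% higher. The lists were found by words in descriptions, so they may hold rows of other function, such as peroxidases. With 1 library per strain the differences between these lists were not tested.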

How the data were processed

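The authors deposited 1 table of raw read counts, whole numbers without normalization, for 5427 rows in 4 libraries whose column names match the labels. Tools listed, without their roles, in the submitters' processing notes are featureCounts 1.6.4, Bowtie2, DESeq2, fastp 0.19.6 and bcl2fastq 2.19.0.316. The genome build is not given in the sources used here. Per the labels' protocols ribosomal RNA was removed from total RNA by a kit for bacteria. Names come from the table's descriptions, since 0 locus tags and 0 protein accessions matched the reference gene table.

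A mean of 20 counts was required of a row (5420 kept, 7 removed). TMM factors, from 0.862 to 1.21, came from edgeR 4.0.16 under R 4.3.3. Ratios, exact intervals and calls were computed with Python 3.11.15, numpy 2.4.6, pandas 2.3.3 and scipy 1.17.1, plotted with matplotlib 3.10.9, and tested on simulated data. The study's 1 library per strain allowed no test, and the intervals, computed from read counts, cover counting error only. The labels name no molecular identifiers, so repeated reads of the same molecule could not be set aside. The intervals may therefore be too narrow even for counting error. Members and lists were chosen with earlier results of these data known, and roles were assigned by hand from descriptions. Rows named are those called in a comparison, the 2 with the most counts in each role and the 3 nearest the limit, with further members given for their role. The 12 alternatives include upper-quartile factors, total counts, size factors of DESeq2 1.42.0, other filters, added counts and memberships. One of them, adding the rows the rule misses, was chosen after seeing the data.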

Additional observations from a re-analysis of the deposited data

How the results depend on the processing

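No call of a member reversed under any of the 12 alternatives, but most of them could not reverse one. The scalings moved all ratios of a comparison alike and by less than 2-fold. Filters, memberships and the 1.5-fold limit left the ratios as they were or nearly so. DESeq2 size factors, TMM without the 20 highest rows, no filter, a minimum mean of 100 counts and membership reviewed by hand kept all 12, 10 and 5 calls in the Mxr1-labelled, Gal83-deleted and Gcn5-deleted libraries. Leaving out rows that may share reads with a neighbour removed 0 members and so was no check. Membership reviewed by hand removed only 3 uncalled rows, and the 1.5-fold limit can only add calls, so neither checked the calls. Adding 5 to each count lost 1, gene3583. Total counts moved the median of all rows to -0.36, 0.14 and -0.34 in the Mxr1-labelled, Gal83-deleted and Gcn5-deleted comparisons and the members' median to -0.49, -0.01 and -0.31. The members lower were then 10, 2 and 10, the members higher in the Gcn5-deleted library 0, and 2 members stood apart in 1 library. Upper-quartile factors moved the members' median in the Mxr1-labelled library to -0.25. The 1.5-fold limit gave 13, 10 and 8 higher and 14, 10 and 11 lower members, with 10 standing apart. The share of all rows standing apart was not counted with total counts or the 1.5-fold limit. The counts of members standing apart there thus say nothing particular about the group. Against the geometric mean of the other 3 libraries, counted by fold alone, the lower members were 3, 1 and 5, the higher ones in the Gcn5-deleted library 1, and its members' median 0.13; of 12, 10 and 5 calls, 8, 5 and 2 were kept. Adding the rows the rule misses gave 8 lower in the Gal83-deleted library. The last 3 changed the fold limit, the reference or the membership, so their counts are not like for like with the main ones. Why calls were lost against the geometric mean was not tested. A change of scaling shifts all ratios of a comparison alike. Relative to all rows the members' median stayed at -0.13, -0.15 and 0.03 in the Mxr1-labelled, Gal83-deleted and Gcn5-deleted comparisons. Why the scalings differ was not tested. Counting intervals of some called members, such as gene3583, gene4074 and TIM14, reached inside the 2-fold limit, and Tim10 and gene2296 had the fewest counts. No paired analysis was possible because each strain had 1 library.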
